A study of Mus musculus with 2 samples.

Results

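The genes described here are 46 genes of the cell cycle and of DNA replication, 19 that act in S phase and 27 that act in G2 and mitosis. They were chosen by name from the 54532 genes of an RNA sequencing table, and each of the 46 names matched 1 gene. The study sorted macrophages from the aorta of dyslipidemic mice by the myeloid surface proteins F4/80 and CD11b and compared a pair of syndromes of traditional Chinese medicine, Phlegm-Dampness Retention (PDR) and Spleen and Kidney Yang Deficiency (SKYD). All mice were male ApoE-/- animals on the C57BL/6J background, with an age of 6 weeks in the labels, and they lack apolipoprotein E, which clears lipoproteins from blood. PDR mice received a high-fat diet for 4 weeks, and SKYD mice received propylthiouracil, a drug that lowers thyroid hormone, by gavage at 10 mg/kg per day for 4 weeks and then a high-fat diet for 2 weeks. Cells of 5 mice were pooled into 1 library in each group, so no difference given here has a replicate check, and the syndrome, the drug, the time on diet and the age at sampling cannot be told apart.

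Cells copy their DNA in S phase and separate the copies in mitosis. Genes for replication are switched on together late in G1, largely by E2F transcription factors once the RB proteins release them, and genes for mitosis are switched on later, in G2, by B-MYB and FOXM1 bound with the MuvB complex. Most macrophages of a healthy artery divide rarely, whereas those of atherosclerotic lesions, and lymphocytes and marrow precursors, can divide actively.

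Levels were deposited as FPKM, which are reads scaled for the length of the gene and the size of the library. FPKM times gene length fell on whole numbers of reads, within 0.01 of a read, for 100% of the genes detected in either library. PDR, as the name of a library, had 17738 detected genes and 23086889 reads on genes. SKYD had 20499 detected genes and 25427863 reads on genes. Differences are log2(FPKM + 1) in PDR minus log2(FPKM + 1) in SKYD, which understates the difference of genes of low level. Intervals in parentheses after a difference cover 95% and follow from exact Clopper-Pearson bounds for the split of a gene's reads between the libraries. They reflect counting error only and not the spread between mice.

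The cell cycle genes were mostly higher in PDR, and by less than 2-fold for most. Genes were compared, and are called tested below, where the mean FPKM reached 1, which 44 of the 46 did, and these 44 were above 1 in both libraries. The other 2, Foxm1 and Cenpf, were below 1 in both. Of the 44, 37 were higher in PDR by any amount, beside 49.6% of all 10399 tested genes. A gene is called past 2-fold below when its difference in log2(FPKM + 1) is above 1 in size. Past 2-fold towards PDR were 5 of the 44, namely Ccnb1, Ccne1, Kif2c, Mcm5 and Rrm1, beside 7.38% of all tested genes. None of the 44 was past 2-fold towards SKYD, beside 6.91% of all tested genes. The added 1 narrows differences, and Cdc45 and Mcm4, with FPKM in PDR of 2.13 and 2.02 times those in SKYD, are left out by it, so a pseudocount of 0.1 or 0.01 gave 7 members, while the count over all genes went from 767 to 1057 or 1096. Library-scaled reads, which also use another library size, gave 11 members towards PDR, and 1164 of all genes. At a 1.5-fold threshold, which 15.1% of all tested genes passed towards PDR and 15% towards SKYD, 20 of the 44 were higher in PDR and none in SKYD.

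The median difference of the 44 genes was 0.53, and that of all 10399 tested genes was 0.00, with quartiles of -0.36 and 0.35. For 31 of the 44 the counting interval lay above 0, beside 36.8% of all tested genes, for 7 it lay below 0, beside 37.7%, and for 6 it covered 0. An interval clear of 0 is thus common in these data. The 7 genes below 0 were Pcna, Ccnb2, Birc5, Nusap1, Cenpa, Cenpe and Mki67. The 46 genes together held 0.322% of the reads of PDR (exact binomial interval 0.320 to 0.324) and 0.231% of those of SKYD (0.229 to 0.233). In RNA from many cells, fewer cells of a type and less RNA per cell cannot be told apart, so a share of this kind is no count of dividing cells.

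**Figure D1:**
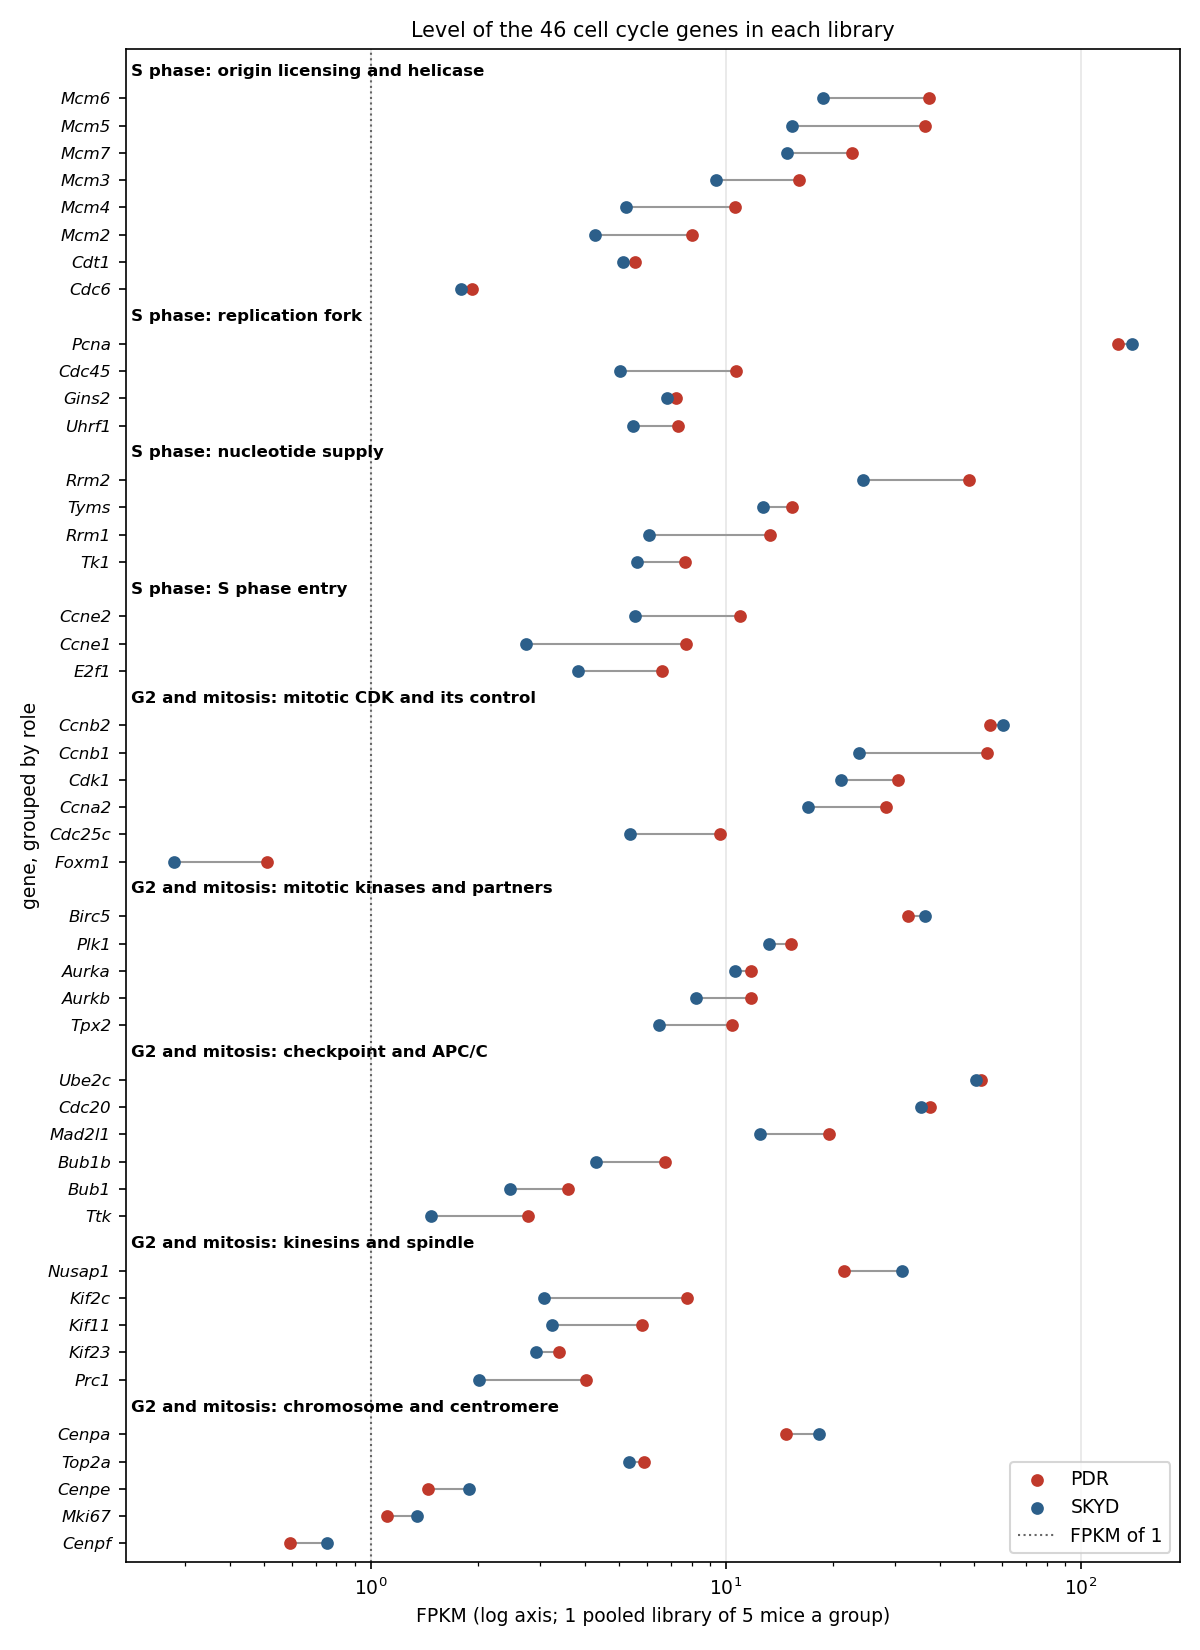
FPKM of the 46 cell cycle genes in PDR (red) and SKYD (blue) on a log axis, grouped by role, with a dotted line at an FPKM of 1. The red point lies to the right for all 6 Mcm genes, while Pcna, at 127 and 139, has the highest level of the 46 genes in both libraries and lies slightly to the left in red.

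**Figure D2:**
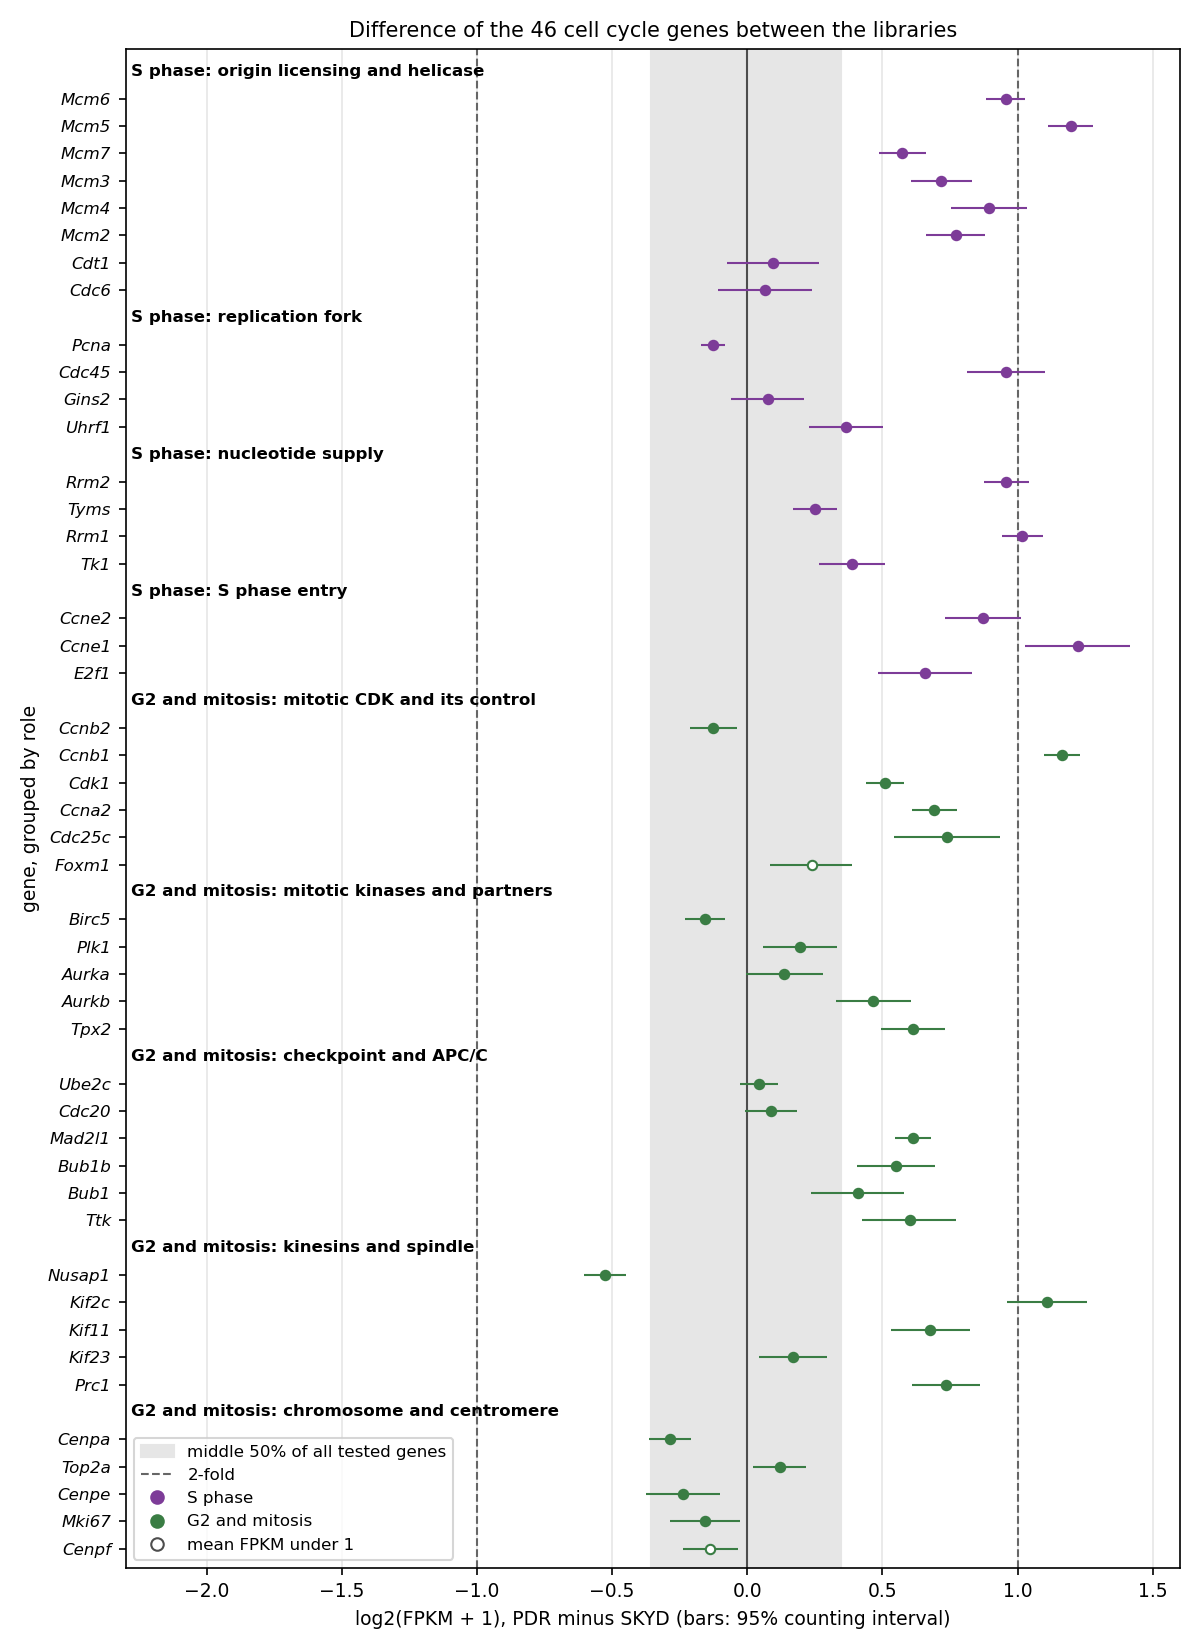
Difference of each of the 46 genes in log2(FPKM + 1), PDR minus SKYD, with 95% counting intervals from 1 library a group, for S phase genes (purple) and G2 and mitosis genes (green). Dashed lines mark 2-fold, the grey band holds the middle 50% of all tested genes, and open points have a mean FPKM under 1; 5 genes lie past the right dashed line and none past the left.

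S phase genes stood further towards PDR than G2 and mitosis genes. Of the 19 S phase genes, 18 were higher in PDR, with a median difference of 0.72. Of the 25 tested G2 and mitosis genes, 19 were higher in PDR, with a median difference of 0.41. Without the filter on level, all 27 G2 and mitosis genes had a median of 0.24, beside 0.72 for S phase, and library-scaled reads gave medians of 0.84 for S phase and 0.56 for G2 and mitosis, so the size of the gap depends on the setting. Whether the phases differ beyond the spread between mice could not be tested with 1 library a group.

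The Mcm2 to Mcm7 proteins form the ring-shaped helicase that is loaded on origins of replication and later unwinds the DNA. All 6 genes were higher in PDR, with a median difference of 0.83, and their summed FPKM was 131 in PDR and 67.8 in SKYD. Mcm5 had an FPKM of 36.4 in PDR and 15.3 in SKYD, a difference of 1.20 (1.11 to 1.28). Mcm6 had the highest level of the 6, at 37.3 and 18.8 FPKM, a difference of 0.96 (0.88 to 1.03). The subunits occur in equal numbers in the ring, but the highest FPKM of the 6 genes was 4.65 times the lowest in PDR and 4.38 times in SKYD. Mcm4 had 10.6 and 5.23 FPKM (0.89, 0.75 to 1.03) and Mcm2 8.02 and 4.29 FPKM (0.77, 0.66 to 0.88). Mcm3 had 16.0 and 9.36 FPKM (0.72, 0.61 to 0.83). Mcm7 had the smallest difference of the 6, 0.57 (0.49 to 0.66), at 22.7 and 14.9 FPKM.

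Cdc6 and Cdt1 encode the factors that load this ring on origins. Their levels barely differed between the libraries, and both intervals covered 0. Cdc6 had 1.92 FPKM in PDR and 1.79 in SKYD, a difference of 0.07 (-0.11 to 0.24). Cdt1 had 5.55 and 5.12 FPKM, a difference of 0.10 (-0.07 to 0.27). The loaders thus stood apart from the helicase genes, although all 8 were higher in PDR.

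Pcna encodes the sliding clamp that holds DNA polymerases on the template and also serves in DNA repair. It had the highest level of the S phase genes, 127 FPKM in PDR and 139 in SKYD, from 7172 and 8340 reads. The difference of -0.13 (-0.17 to -0.08) made it the only S phase gene that was lower in PDR. Its promoter is shown because of this level, from 250 bases before to 30 bases after the start of the gene in RefSeq on GRCm38.p6, chr2:132253151-132253430 on the minus strand, 5′ to 3′, with capitals marking a CCAAT box, here read on the other strand as ATTGG.
Pcna: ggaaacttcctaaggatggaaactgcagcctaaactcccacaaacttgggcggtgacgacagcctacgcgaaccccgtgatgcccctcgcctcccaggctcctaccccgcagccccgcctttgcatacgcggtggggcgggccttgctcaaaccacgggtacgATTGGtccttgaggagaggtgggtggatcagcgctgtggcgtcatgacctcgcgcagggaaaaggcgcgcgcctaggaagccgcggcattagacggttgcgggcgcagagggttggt

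Cdc45 and Gins2 encode parts of the active helicase, the complex that forms when Cdc45 and the GINS proteins join the Mcm ring. Cdc45 had 10.7 FPKM in PDR and 5.02 in SKYD, a difference of 0.96 (0.81 to 1.10). Gins2 had 7.23 and 6.82 FPKM, a difference of 0.07 (-0.06 to 0.21). Cdc45 thus resembled the Mcm genes in its difference, whereas Gins2 resembled the loaders. Both Cdc45 and Gins2 overlap another gene with reads, which makes their values less certain. Uhrf1, which guides DNA methylation of the new strand, had 7.34 and 5.48 FPKM, a difference of 0.36 (0.23 to 0.50).

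Among the genes that supply nucleotides, all 4 were higher in PDR, with a median difference of 0.67. Rrm1 and Rrm2 encode the large and the small subunit of ribonucleotide reductase, which makes deoxyribonucleotides. Rrm1 had 13.3 FPKM in PDR and 6.08 in SKYD, a difference of 1.02 (0.94 to 1.09). Rrm2 had 48.2 and 24.3 FPKM, a difference of 0.96 (0.87 to 1.04). The level of Rrm1 was 0.276 times that of Rrm2 in PDR and 0.250 times in SKYD, so both subunits differed by about the same factor. The enzymes of thymidine supply were closer between the libraries. Thymidylate synthase, Tyms, had 15.3 and 12.7 FPKM, a difference of 0.25 (0.17 to 0.33). Thymidine kinase 1, Tk1, had 7.66 and 5.63 FPKM, a difference of 0.39 (0.26 to 0.51).

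Ccne1 and Ccne2 encode the E cyclins, which activate CDK2 at the entry into S phase. Ccne1 had the largest difference of the 46 genes, 1.22 (1.03 to 1.42), at 7.72 FPKM in PDR and 2.74 in SKYD, from 483 and 182 reads. Ccne2 had 10.9 and 5.53 FPKM, a difference of 0.87 (0.73 to 1.01). E2f1, an activator of replication genes and itself an E2F target, had 6.60 and 3.82 FPKM, a difference of 0.66 (0.48 to 0.83). The counting intervals of all 3 genes of S phase entry lay above 0. The promoter of Ccne1 is shown for this difference, chr7:38107461-38107740 on the minus strand over the same window, with capitals marking TTTAAA, the letters of a CHR element, which is the site that the MuvB complex binds at mitosis genes.
Ccne1: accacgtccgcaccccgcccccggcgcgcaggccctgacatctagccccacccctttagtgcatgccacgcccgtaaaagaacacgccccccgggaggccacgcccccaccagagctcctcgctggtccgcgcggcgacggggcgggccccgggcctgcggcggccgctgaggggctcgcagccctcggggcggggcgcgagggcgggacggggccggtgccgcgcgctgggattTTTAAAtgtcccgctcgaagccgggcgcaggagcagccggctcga

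The Cdk1 kinase with its cyclins drives the entry into mitosis. Ccnb1 had 54.4 FPKM in PDR and 23.7 in SKYD, a difference of 1.16 (1.10 to 1.23). Ccnb2, which encodes the other mitotic B cyclin, had 55.3 and 60.4 FPKM, a difference of -0.13 (-0.21 to -0.04). The level of Ccnb1 was thus 0.985 times that of Ccnb2 in PDR (interval 0.936 to 1.04) and 0.393 times in SKYD (0.372 to 0.416). Cyclin B1 is required for mitosis, whereas mice without cyclin B2 are viable. Cdk1 itself had 30.5 and 21.1 FPKM, a difference of 0.51 (0.44 to 0.58). Ccna2, the cyclin of S phase and G2, had 28.2 and 17.0 FPKM, a difference of 0.69 (0.61 to 0.78). The kinase needs a cyclin and the removal of inhibitory phosphates to become active. Cdc25c, the phosphatase that activates Cdk1, had 9.61 and 5.36 FPKM, a difference of 0.74 (0.54 to 0.93). Foxm1, the transcription factor of G2 genes, was low in both libraries, with 0.511 and 0.278 FPKM from 69 and 40 reads. Ccnb2 had the highest level of the G2 and mitosis genes, and its promoter, chr9:70421525-70421804 on the minus strand, carries 3 CCAAT boxes and 2 copies of the CHR letters TTTGAA, all in capitals.
Ccnb2: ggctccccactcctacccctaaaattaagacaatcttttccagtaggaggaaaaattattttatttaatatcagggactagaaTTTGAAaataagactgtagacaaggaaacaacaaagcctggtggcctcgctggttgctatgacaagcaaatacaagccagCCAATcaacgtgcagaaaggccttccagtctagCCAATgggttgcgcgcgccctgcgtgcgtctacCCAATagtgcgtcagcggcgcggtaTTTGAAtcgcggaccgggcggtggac

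The mitotic kinases and their partners were closer between the libraries, with a median difference of 0.20 over 5 genes. Aurkb, the kinase of the chromosomal passenger complex, had 11.7 FPKM in PDR and 8.23 in SKYD, a difference of 0.47 (0.33 to 0.61). Birc5, which encodes survivin of the same complex, had 32.5 and 36.4 FPKM, a difference of -0.16 (-0.23 to -0.08). These partners in 1 complex thus differed in direction. Tpx2, a spindle protein that activates Aurora A, had 10.4 and 6.46 FPKM, a difference of 0.61 (0.49 to 0.73). Aurora A itself, Aurka, had 11.8 and 10.6 FPKM, a difference of 0.14 (-0.01 to 0.28). Plk1, a kinase of spindle assembly and mitotic exit, had 15.3 and 13.2 FPKM, a difference of 0.20 (0.06 to 0.33). Only Aurka among the 5 had an interval that covered 0.

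All 6 genes of the spindle checkpoint and of the anaphase-promoting complex were higher in PDR, with a median difference of 0.48. Checkpoint proteins hold the cell before anaphase until every chromosome is attached. Mad2l1 had 19.6 FPKM in PDR and 12.4 in SKYD, a difference of 0.61 (0.55 to 0.68). The checkpoint kinase Ttk had 2.76 and 1.48 FPKM (0.60, 0.43 to 0.77). Bub1b had 6.75 and 4.30 FPKM (0.55, 0.40 to 0.69) and Bub1 had 3.60 and 2.46 FPKM (0.41, 0.24 to 0.58). Cdc20 and Ube2c act on the other side of this switch, as the activator and the ubiquitin-conjugating enzyme of the anaphase-promoting complex. Cdc20 had 37.7 and 35.3 FPKM, a difference of 0.09 (-0.01 to 0.19). Ube2c had 52.2 and 50.6 FPKM, a difference of 0.04 (-0.03 to 0.11). Intervals lay above 0 for the 4 checkpoint genes and covered 0 for Cdc20 and Ube2c.

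Of the genes of spindle motors and spindle bundling, 4 of 5 were higher in PDR, and the most abundant of them was the exception. Kif2c, a kinesin that takes microtubules apart at centromeres, had 7.78 FPKM in PDR and 3.07 in SKYD, a difference of 1.11 (0.96 to 1.26). Kif11, the motor that pushes the spindle poles apart, had 5.79 and 3.25 FPKM, a difference of 0.68 (0.53 to 0.82). Prc1, which bundles the microtubules of the central spindle, had 4.03 and 2.02 FPKM, a difference of 0.74 (0.61 to 0.86). The central spindle forms between the separating chromosomes and marks where the cell divides. Kif23, a motor of the central spindle in cytokinesis, was nearer between the libraries, at 3.39 and 2.91 FPKM (0.17, 0.04 to 0.29). Nusap1, which binds and crosslinks spindle microtubules, had 21.5 FPKM in PDR and 31.4 in SKYD, a difference of -0.53 (-0.60 to -0.45). No other gene of the 46 stood further towards SKYD. Its promoter, chr2:119618048-119618327 on the plus strand over the same window, is shown for this difference and has no capitals, since none of the letters searched occurs in it.
Nusap1: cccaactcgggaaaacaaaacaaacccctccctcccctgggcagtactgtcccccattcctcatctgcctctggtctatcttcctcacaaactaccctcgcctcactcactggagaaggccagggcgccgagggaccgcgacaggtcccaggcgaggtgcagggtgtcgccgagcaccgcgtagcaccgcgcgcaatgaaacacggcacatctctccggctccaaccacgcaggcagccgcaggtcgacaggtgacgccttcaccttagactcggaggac

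Genes of chromosome structure and of the centromere were the only group with a median below 0, -0.20 over 4 tested genes. Cenpa, the histone H3 variant of centromeres, had 14.8 FPKM in PDR and 18.3 in SKYD, a difference of -0.29 (-0.36 to -0.21). Cenpe, a kinesin of the kinetochore, had 1.45 and 1.89 FPKM, a difference of -0.24 (-0.37 to -0.10). Mki67, which encodes the Ki-67 protein used to stain dividing cells, had 1.11 and 1.35 FPKM, a difference of -0.16 (-0.29 to -0.03). The common marker of division was thus lower in PDR, where most of the other genes were higher. Top2a, the topoisomerase that untangles DNA, had 5.87 and 5.32 FPKM, a difference of 0.12 (0.02 to 0.22). Cenpf, a kinetochore protein, had 0.593 and 0.752 FPKM, a difference of -0.14 (-0.24 to -0.03).

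Within each library, the summed FPKM of the S phase genes can be set against that of the G2 and mitosis genes. The sums were 401 and 449 in PDR and 292 and 380 in SKYD. The ratio of S phase to G2 and mitosis was 0.893 in PDR (interval 0.879 to 0.907) and 0.769 in SKYD (0.756 to 0.783). Pcna made up a large part of the S phase sum, 127 of 401 in PDR and 139 of 292 in SKYD. Without Pcna, a choice made after seeing the data, the ratios were 0.609 (0.599 to 0.620) and 0.403 (0.395 to 0.411). The ratio in PDR was 1.16 times that in SKYD with Pcna and 1.51 times without it.

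The letters of known cell cycle sites were searched on both strands of the same window in 27025 RefSeq promoters, of which 38 belong to the 46 genes, 16 of S phase and 22 of G2 and mitosis. The letters were TTTGAA or TTTAAA for the CHR element, CCAAT for the CCAAT box, and TTTGGCGC or TTTCGCGC or TTTCCCGC or TTTGCCGC for an E2F site. CHR letters occurred in 18 of 22 promoters of G2 and mitosis genes (81.8%), 6 of 16 of S phase genes (37.5%) and 7289 of all 27025 promoters. A CCAAT box occurred in 18 of 22 (81.8%), 10 of 16 (62.5%) and 36.6% of them. E2F letters occurred in 1 of 22 (4.55%), 5 of 16 (31.2%) and 2.16%. In G2 and mitosis genes 11 of 22 promoters (50%) held CHR letters and 2 or more CCAAT boxes, against 2 of 16 of S phase genes (12.5%) and 2.98% of all promoters. The palindrome TTTAAA was counted once at each place, and a match describes letters and is no measured site. The promoter of Ccnb1, higher in PDR, held 1 CHR match, that of Cenpa, lower in it, held 2, and each held 2 CCAAT boxes. This pair was chosen after the values were seen, and whether these letters go with the differences was not tested.

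A wider set of replication genes, none of them among the 46, showed the same direction as the S phase genes. Of 40 such genes 31 were tested, and 30 of the 31 were higher in PDR, with a median difference of 0.56. Rfc4, a subunit of the clamp loader, had 97.1 FPKM in PDR and 55.9 in SKYD, a difference of 0.79 (0.71 to 0.86). Gmnn, which encodes the Cdt1 inhibitor geminin, had 80.8 and 49.4 FPKM (0.70, 0.61 to 0.78). Tipin, a protein that protects stalled forks, had 68.2 and 48.2 FPKM (0.49, 0.41 to 0.57). Rfc4 and Tipin serve at the fork, whereas geminin inhibits a loader of the Mcm ring. The exception in direction was Usp1, a deubiquitinase that acts on PCNA, with a difference of -0.06 (-0.18 to 0.05).

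A wider set of mitosis genes was more mixed. Of 59 genes 50 were tested, 35 of them higher in PDR, with a median difference of 0.24. The most abundant was Hmgb2, a chromatin protein, with 314 FPKM in PDR and 397 in SKYD, a difference of -0.33 (-0.36 to -0.31). Cks2, a small partner of CDKs, had 244 and 258 FPKM (-0.08, -0.14 to -0.02). Abundant genes such as these are also expressed outside mitosis. Stmn1, which takes microtubules apart and is not restricted to dividing cells, had 129 and 342 FPKM, a difference of -1.40 (-1.44 to -1.36). Smc4, a condensin subunit, had 8.32 and 25.7 FPKM (-1.52, -1.61 to -1.42). Past 2-fold in the other direction were Melk at 1.17, Ncapg at 1.16 and Kif20a at 1.07. Ncapg encodes another condensin subunit, so subunits of this complex were past 2-fold in opposite directions. The summed FPKM of the set was 1202 in PDR and 1467 in SKYD, since its 3 most abundant genes were all lower in PDR, while most of its genes were higher.

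Among the regulators of the cycle, CDK inhibitors were mostly higher in SKYD. Of 7 genes 5 were tested, 4 of them higher in SKYD, with a median difference of -1.02, and 3 of the 5 were past 2-fold towards SKYD. Cdkn1a, which encodes the p53 target p21, had 17.7 FPKM in PDR and 69.2 in SKYD, a difference of -1.91 (-1.99 to -1.83). Cdkn2d had 53.7 and 142 FPKM (-1.38, -1.45 to -1.31) and Cdkn2c 5.04 and 11.2 FPKM (-1.02, -1.18 to -0.85). Cdkn2d and Cdkn2c encode inhibitors of CDK4 and CDK6. The same family holds Cdkn2b, which stood the other way at 2.88 and 0.979 FPKM (0.97, 0.63 to 1.29), and only the added 1 keeps it from being past 2-fold, since its FPKM was 2.94 times as high in PDR. Cdkn2a had 0 reads in PDR and 4 in SKYD.

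A list of G1 cyclins, CDKs, CDC25 phosphatases, checkpoint kinases and the CDK1-inhibiting kinases Wee1 and Pkmyt1 had a median difference of 0.00 over 10 tested genes, 5 of them higher in PDR. Cdk4 had 61.0 FPKM in PDR and 62.0 in SKYD, a difference of -0.02 (-0.08 to 0.03). Its partner cyclins differed among themselves. Ccnd1 had 5.54 and 11.8 FPKM (-0.96, -1.08 to -0.84) and Ccnd3 had 21.2 and 30.9 FPKM (-0.52, -0.58 to -0.47), whereas Ccnd2 had 9.87 and 7.72 FPKM (0.32, 0.24 to 0.40). None of the 10 was past 2-fold in log2(FPKM + 1), although the FPKM of Ccnd1 was 2.12 times as high in SKYD and that of Pkmyt1 2.58 times as high in PDR. Of the RB, E2F and MuvB genes 11 of 15 tested were higher in PDR, and their median difference was 0.17. Mybl2, which encodes B-MYB and is itself an E2F target, was the only one past 2-fold, at 3.47 and 1.17 FPKM (1.05, 0.87 to 1.22). Rbbp4, a histone-binding subunit of MuvB and other complexes, had 6672 and 4153 reads (0.74, 0.69 to 0.80). MuvB joins B-MYB at mitosis genes and a repressive complex with RB relatives in resting cells. Lin37, another MuvB subunit, had 19.6 and 28.6 FPKM (-0.52, -0.66 to -0.38). Tfdp1, the partner of E2F proteins, had 23.3 and 15.5 FPKM (0.56, 0.47 to 0.66).

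**Figure D3:**
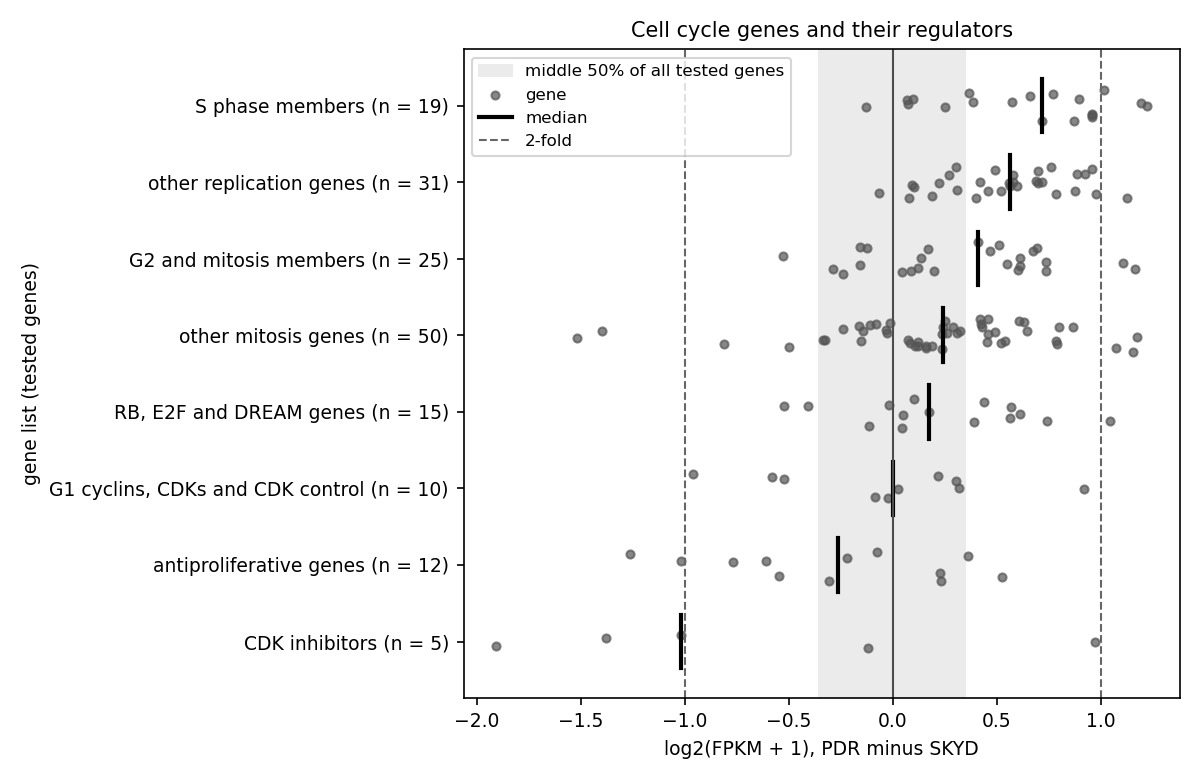
Differences in log2(FPKM + 1), PDR minus SKYD, of the tested genes of each list (points, spread vertically for view), with the list median (black bar), 2-fold lines (dashed) and the middle 50% of all tested genes (grey band). The median is 0.72 for the S phase genes and -1.02 for the CDK inhibitors.

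Markers of several cell types differed between the libraries by more than the cell cycle genes did, and their part in the values above was not tested. Macrophage markers were all above 0 in both libraries, and 12 of 14 were higher in SKYD, 6 of them past 2-fold. Their summed FPKM was 24925 in PDR and 48234 in SKYD, most of it from Lyz2, the lysozyme of myeloid cells. RNA of the genes for both sort markers was detected, Adgre1 for F4/80 at 87.3 and 93.3 FPKM and Itgam for CD11b at 8.84 and 14.4 FPKM. Such levels do not show which share of the cells carried both proteins.

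Lymphocyte markers stood in both directions. Of 13 markers of immature T cells, 12 were past 2-fold towards SKYD, with a summed FPKM of 84.7 in PDR and 1053 in SKYD. The most abundant was Cd8b1, and Ptcra, Rag1 and Rag2 had 0 reads in PDR beside 475, 637 and 2262 in SKYD. A count of 0 allows up to 3 reads, so Rag2 was at least 708-fold higher in SKYD. Rag1 and Rag2 encode the enzyme that cuts antigen receptor genes, in cells that divide at some stages and rest at others. Early B cell markers share Rag1, Rag2 and Dntt with that list, and 3 of 5 tested were past 2-fold towards SKYD and 1, Vpreb3, towards PDR. The 3 were Rag1, Rag2 and Dntt, which were below 1 FPKM in PDR and passed the filter on level only through SKYD. The filter thus favoured this direction for them and for the other immature T cell markers below 1 FPKM in PDR. The summed FPKM of the 10 was 36.9 and 245, with Dntt the most abundant, and Erg, Igll1, Rag1, Rag2 and Vpreb2 had 0 reads in PDR and Vpreb2 in SKYD.

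B cell markers stood the other way. All 6 of 6 tested were past 2-fold towards PDR, with a summed FPKM over 8 genes of 1766 in PDR and 401 in SKYD, and Cd79b the most abundant. Germinal centre B cells divide rapidly, and their 7 markers had a summed FPKM of 143 in PDR and 69.1 in SKYD, with Fas, which many other cells express, the most abundant. Mef2b, Rgs13, Gcsam and S1pr2 were past 2-fold towards PDR. None of the B cell or germinal centre markers was at 0 in either library. Plasma cell markers had a summed FPKM of 3401 and 2747, with Jchain the most abundant, and 3 of 7 tested, Mzb1, Derl3 and Tnfrsf17, were past 2-fold towards PDR. Markers of effector T and NK cells, which divide when activated, were past 2-fold towards PDR in 7 of 8 tested, at 617 and 208 summed FPKM, with Gzma the most abundant.

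Marrow-type markers were divided as well. Neutrophil precursor markers, some from dividing stages, had a summed FPKM of 2849 in PDR and 1581 in SKYD, with Chil3 the most abundant and 5 of 9, Elane, Ctsg, Ms4a3, Mpo and Ltf, past 2-fold towards PDR, whereas Prtn3 was lower there (-0.75, -0.83 to -0.67). Stem and progenitor markers were low, at 3.58 and 8.23 summed FPKM over 6 genes, with Flt3 the most abundant and 2 of 3 tested, Myb and Cd34, past 2-fold towards SKYD. Myb, at 0.081 and 2.53 FPKM, and Cd34, at 0.339 and 1.72, passed the filter on level only through SKYD, which favours that direction. Flt3, above 1 FPKM in both libraries, was under 2-fold (-0.23, -0.37 to -0.09). Erythroid markers had 20991 and 28336 summed FPKM, led by Hba-a1, with none of 7 tested past 2-fold. The erythroid regulators Klf1 and Epor had 0 reads in PDR and Rhag in SKYD. Klf1 and Epor act in red cell precursors, whereas globin RNA is also found in young circulating red cells.

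Markers of cells outside the blood were low except for the liver. Hepatocyte markers had a summed FPKM of 2095 in PDR and 714 in SKYD, with Apoa2 the most abundant, and 7 of 8 were past 2-fold towards PDR. Fibroblast markers had 10.8 and 43.7, led by Dcn, with both tested genes, Dcn and Lum, past 2-fold towards SKYD. Lum, at 0.191 and 2.12 FPKM, passed the filter on level only through SKYD, which favours that direction, whereas Dcn was above 1 FPKM in both libraries. Endothelial markers had 4.46 and 2.91, led by Pecam1, with Emcn at 0 reads in PDR and the 1 tested gene under 2-fold. Smooth muscle markers had 3.15 and 2.92, led by Acta2, with Cnn1, Myh11 and Tagln at 0 reads in both libraries and neither of 2 tested past 2-fold. In any list, a gene below 1 FPKM in 1 library passed the filter on level only through the other. The filter then favours that direction, as for S1pr2 and Mpo towards PDR. In all lists, genes outside the naming rule that are named for a count of 5 or fewer were named after their values were seen.

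**Figure D4:**
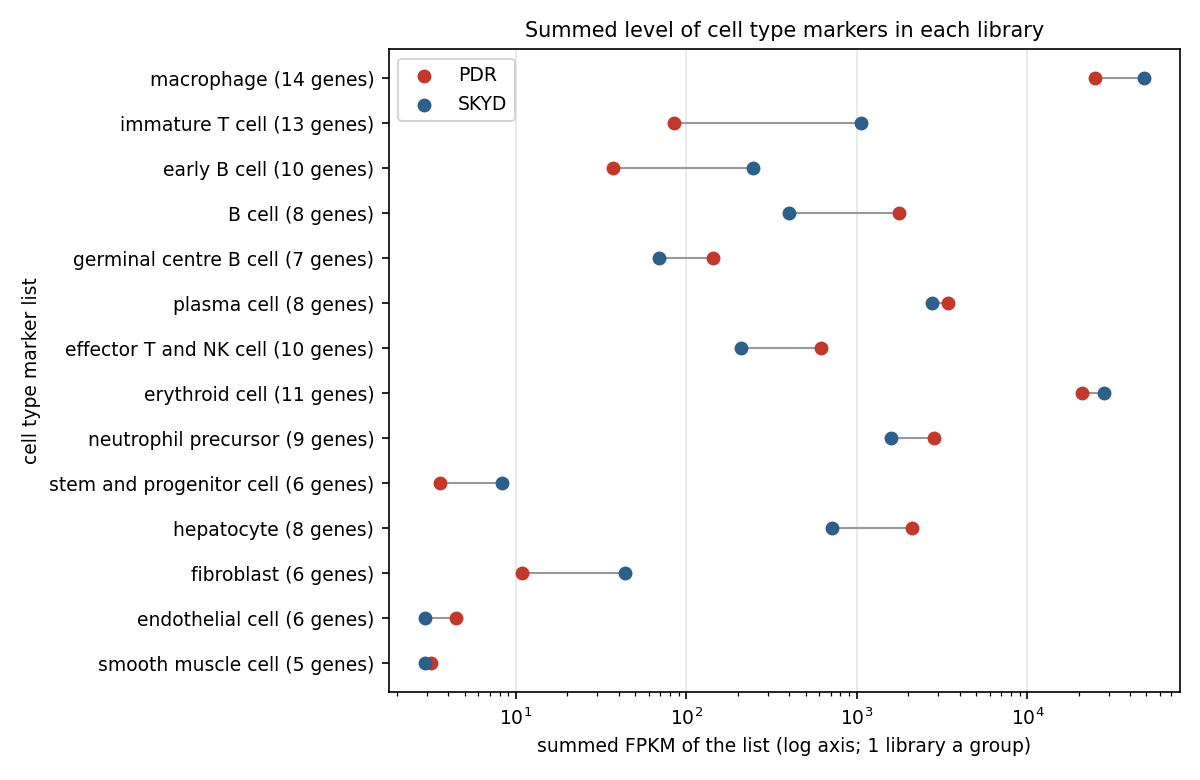
Summed FPKM of each cell type marker list in PDR (red) and SKYD (blue), on a log axis, from 1 library a group. B cell markers lie at 1766 and 401 and immature T cell markers at 84.7 and 1053, in opposite directions.

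Some of the 46 genes share sequence or position with another gene, and whether the counting used the strand is not given in the sources used here. In 50-base windows of their annotated transcripts, 9 of the 46 shared none with another gene and 11 shared more than 10%. Gins2 shared 65.4%, with the overlapping gene Gse1, which had 27 and 139 reads beside 696 and 698 for Gins2. Ccnb1 shared 23.4%, mostly with Ccnb1-ps, a pseudogene with 47 and 17 reads beside 5393 and 2502. Mcm7 shared 23.3%, mostly with Gm5487, which has no reads listed. Pcna shared 19.1%, with Pcna-ps2, at 62 and 78 reads. For Gins2, Ccnb1 and Pcna the reads listed under the other gene were fewer, and for Mcm7 they are unknown. Reads left out of the counting are missing from both genes, so these counts do not show how many reads a member lost. In 9 of the 46 genes an overlapping gene had more than 100 reads over both libraries, as with Exosc9 on the other strand of Ccna2, at 2109 and 1565 reads beside 2700 and 1739. Reads of such pairs may have been split or dropped in the counting, so Ccna2 and the other 8, Ccne2, Cdc20, Nusap1, Prc1, Mcm7, Cdc45, Gins2 and Tk1, are less certain than the rest.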

How the data were processed

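Macrophages were sorted from the aorta of ApoE-/- mice, 5 mice were pooled to make each sample, and paired 100-base reads were sequenced from 1 library per group. The authors removed adaptor and poor reads, aligned the rest with TopHat 2.0.9 and Bowtie2 2.0.6, counted them per gene with HTSeq 0.6.1 and deposited FPKM. The submitters' processing notes name the build mm9, but 45 of the 46 genes have the position they have in the GENCODE M21 annotation of GRCm38. HTSeq leaves out reads that map to several places or to overlapping genes, which lowers genes with near copies.

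Here FPKM times gene length was divided by the step that recurs in each library, which gave reads and a divisor behind FPKM of 23487992 for PDR and 24993633 for SKYD. This divisor is not the sum of reads on genes, which was 23086889 and 25427863, and how it was obtained is not given. A pseudocount of 1 was added before log2, genes whose FPKM averaged 1 or more over both libraries were tested, and 2-fold was the threshold. Intervals of 95% come from exact bounds on reads, those of ratios of summed FPKM from the normal approximation on the log scale, and a count of 0 was taken to allow 3 reads. No p was computed, since a group held 1 library. Alternatives were other pseudocounts, filters, scalings, thresholds, lists and quantities. The steps were tested on simulated data. Tables were handled with pandas 2.3.3 and numpy 2.4.6 in Python 3.11.15, exact bounds came from scipy 1.17.1, and plots from matplotlib 3.10.9.

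The members, the process lists and the 14 marker lists were chosen with earlier results of these data known. Named genes were every member, from each other process list the 3 with the highest mean FPKM and up to 4 past 2-fold with the largest difference, and from each marker list the most abundant gene and those at 0 reads. Promoters were printed for the members with the highest mean FPKM in either phase and the largest difference each way.

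Results of some single genes in the process and marker lists are not given in the report, while the sums and medians of those lists include all their genes.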

Additional observations from a re-analysis of the deposited data

How the results depend on the processing

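No paired analysis or replicate comparison was possible because each group had 1 library, and neither library could be left out. Of 300 differences of single members under another setting, 168 could not change direction, since a pseudocount or filter leaves the sign as it is, and the 132 under TPM, centring and library-scaled reads kept theirs. Of the 300, 33 moved beyond their counting interval. The median of each process and marker list also kept its sign under TPM, centring and library-scaled reads. When an average FPKM of 5 was required, the ratio of S phase to G2 and mitosis genes was 0.937 in PDR and 0.799 in SKYD, and 464 genes were past 2-fold towards PDR and 373 towards SKYD, since fewer genes were tested. A pseudocount of 0.1 gave 7 members towards PDR and 1057 and 1010 of all genes, and 0.01 gave 7 and 1096 and 1048. Among protein-coding genes 542 were past 2-fold towards PDR and 473 towards SKYD. A 1.5-fold threshold gave 20 members towards PDR, 11 of S phase and 9 of G2 and mitosis, and 1574 and 1562 of all genes. A 4-fold threshold gave 0 members, and 194 and 216 of all genes. Library-scaled reads had 0.5 read added, were not divided by gene length and do not pull low genes together. They also took the reads on genes as the size of the library, and the median difference of all tested genes went from -0.003 to 0.045. They gave 11 members towards PDR, medians of 0.84 for S phase and 0.56 for G2 and mitosis, a ratio of 0.749 in SKYD and 1164 genes towards PDR and 980 towards SKYD. Which of these choices moved the counts was not tested. The wider list of replication genes had a median of 0.56. Without Pcna, chosen after seeing the data, the ratios were 0.609 and 0.403. Depth limits the genes of few reads, such as Foxm1 with 69 and 40. The causes of these shifts, beyond the construction of each alternative, were not tested.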

Other observations

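A list of antiproliferative and p53 pathway genes was mostly lower in PDR. Its members include Mdm2, an inhibitor of p53, so not all of them restrain division. Of its 13 genes 12 were tested, and 8 of the 12 were higher in SKYD, with a median difference of -0.26. Klf2, a transcription factor of quiescent cells, had 79.5 FPKM in PDR and 193 in SKYD, a difference of -1.26 (-1.32 to -1.21). Btg2, an antiproliferative partner of mRNA deadenylases and a p53 target, had 50.3 and 86.4 FPKM (-0.77, -0.83 to -0.71). Klf4 had 0.977 and 3.01 FPKM (-1.02, -1.23 to -0.79). Klf2 and Klf4 also have other roles in macrophages, so the list is not specific to division. Btg1, a relative of Btg2, stood the other way at 44.5 and 37.8 FPKM (0.23, 0.18 to 0.29). Also higher in PDR were Ccng1 (0.52, 0.45 to 0.60), Mdm2 (0.36, 0.24 to 0.48) and Foxo1 (0.23, 0.10 to 0.36). In all, 4 of the 12 stood towards PDR, so the list had no single direction.

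The difference of the 44 tested members varied with gene length. The 29 members between 2000 and 5000 bases had a median difference of 0.60, the 12 longer ones 0.21, and the 3 shorter ones 0.09. Among all tested genes the medians were 0.01 for 4464 genes, 0.03 for 2732 and -0.09 for 3203 of these lengths. In the wider lists the longer genes stood higher, at 0.49 for 27 genes beside 0.41 for 42 and 0.12 for 12 short ones.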
